A study of Mus musculus with 6 samples.

Results

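MHC class II presentation genes were examined in group 2 innate lymphoid cells (ILC2s), tissue-resident lymphocytes known for type 2 cytokines. The set was chosen by gene symbol and holds 10 genes of the 23268 in the deposited table: the chains H2-Aa, H2-Ab1 and H2-Eb1, the invariant chain Cd74, the peptide-loading genes H2-DMa, H2-DMb1, H2-DMb2, H2-Oa and H2-Ob, and the transactivator Ciita. The cells came from the colon of C57BL/6 mice, 6 to 8 weeks old, that received 3% dextran sulfate sodium (DSS), which injures the colonic epithelium, or water (control) over 6 days. RNA sequencing of full-length cDNA gave 3 DSS and 3 control libraries. No sorting gate is given in the sources used here. Neither is it stated whether each library is 1 mouse or several, and every p-value therefore refers to library-to-library spread, part of which can be technical.

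MHC class II molecules are heterodimers of an alpha and a beta chain that carry peptides from endosomes to the cell surface and show them to CD4 T cells. The invariant chain occupies the groove until it is trimmed by proteases, H2-DM exchanges its last fragment for peptide, and H2-DO restrains H2-DM. CIITA switches the genes on by joining factors that sit on the X and Y boxes of their promoters. ILC2s are known to carry class II molecules at lower levels than dedicated antigen-presenting cells. C57BL/6 mice lack a working H2-Ea gene, so the H2-Eb1 transcript has no alpha chain partner there at the protein level.

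Of the 10 genes, 8 lie on chromosome 17 between 34092340 and 34316674 (mm10), a stretch of 224 kb, while Ciita is on chromosome 16 (10480059 to 10528418). RefSeq promoter windows (GRCm38.p6, 250 bases before to 50 after a gene's start) were matched for 7 of the 10 by symbol. The Y box is shown because it is the promoter element that recurred across the set. TGATTGG, searched on both strands and chosen after the windows were read, was in the windows of 6 of these 7 genes and in 7.82% of all 32851 windows. The 5-letter core ATTGG inside it was in all 7 genes, against 37.4% of all windows. An X box stretch, AAC and TGATG with 3 bases between, was in 4 of the 7 genes, against 0.615% of windows. Both stretches together were in 0.0517% of windows. No source for the letters of this stretch apart from these windows is given, and the members' windows count among all windows. Its shares are therefore a description and not a test. The lines below run 5′ to 3′ on each gene's strand, with TGATTGG and, where matched, this X box stretch in capitals. Only this spelling was searched, so a line without a match is not shown to lack an X box.
H2-Aa: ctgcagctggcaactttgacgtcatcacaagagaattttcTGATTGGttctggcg
H2-Eb1: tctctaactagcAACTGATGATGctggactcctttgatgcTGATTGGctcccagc
H2-DMb1: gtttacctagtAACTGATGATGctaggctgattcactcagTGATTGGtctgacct
H2-DMb2: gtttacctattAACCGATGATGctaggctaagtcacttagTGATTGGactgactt
H2-Oa: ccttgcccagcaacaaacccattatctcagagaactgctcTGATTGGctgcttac
H2-Ob: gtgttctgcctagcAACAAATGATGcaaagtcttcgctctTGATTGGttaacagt
These stretches lie at chr17:34287859-34287913 (minus strand) for H2-Aa and, on the plus strand, at chr17:34305766-34305820 for H2-Eb1, chr17:34153088-34153142 for H2-DMb1, chr17:34145117-34145171 for H2-DMb2, chr17:34092294-34092348 for H2-Oa and chr17:34238806-34238860 for H2-Ob. The Y box began 92 bases before the RefSeq gene start in H2-DMb2 and 45 to 63 bases before it in the other 5 genes. Gene starts differ in GENCODE M21, where H2-DMb2 (34143307) and H2-DMb1 (34153072) start before the stretches shown. In the 4 genes with both stretches, 15 to 18 bases separated them. A match describes the sequence only. H2-Ab1, Cd74 and Ciita are named without a window.

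Library depth was 14849084, 18951020 and 9962415 fragments in DSS replicates 1, 2 and 3, and 23119390, 17546966 and 12670662 in control replicates 1, 2 and 3. The median gene of the table was at 0.777, 0.687 and 2.61 FPKM (fragment counts corrected for gene length and for sequencing depth) in the DSS libraries and at 0.398, 0.513 and 1.64 FPKM in the control libraries, so replicate 3 of each group had the highest level of weak signal. The labelled cell type carried its markers. Gata3, the ILC2 master regulator, was at 287 to 674 FPKM in DSS and 841 to 885 FPKM in control libraries. The 10 ILC2 markers summed to 2422 to 2629 FPKM in DSS and 3119 to 3411 FPKM in control libraries, and 1 of them passed the test, lower in DSS: Il5, a type 2 cytokine gene. Limma called 27 of 12187 tested genes (0.222%) at an adjusted p under 0.05, 0.0738% as higher and 0.148% as lower in DSS, and the count of 27 was 435, 7 and 15 without DSS replicates 1, 2 and 3 and 5, 5 and 6 without control replicates 1, 2 and 3.

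The transcripts of the invariant chain and of the 3 class II chains were each higher in every DSS library than in every control library, by 1.61- to 1.71-fold in mean FPKM, and none of the 4 passed the test over all genes. All 10 genes had a mean of at least 1 FPKM over the 6 libraries and were tested, and 0 of 10 passed by limma (adjusted p), while 4 had an unadjusted p under 0.05. Among all genes tested, 0.222% passed, 8.99% had an unadjusted p under 0.05, and 3.57% had one and were higher in DSS. By voom on the recovered fragments 0 of 10 passed as well. Groups did not overlap for 4 of 10 genes, all higher in DSS, against 6.35% of all tested genes higher in that way. Of the 10 genes, 9 had a log2 change above 0, against 53.1% of all genes tested. The median log2 change of the 10 was 0.56, and that of all tested genes was 0.03. In bulk samples, more or fewer cells of a type and more or less RNA per cell cannot be told apart.

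**Figure D1:**
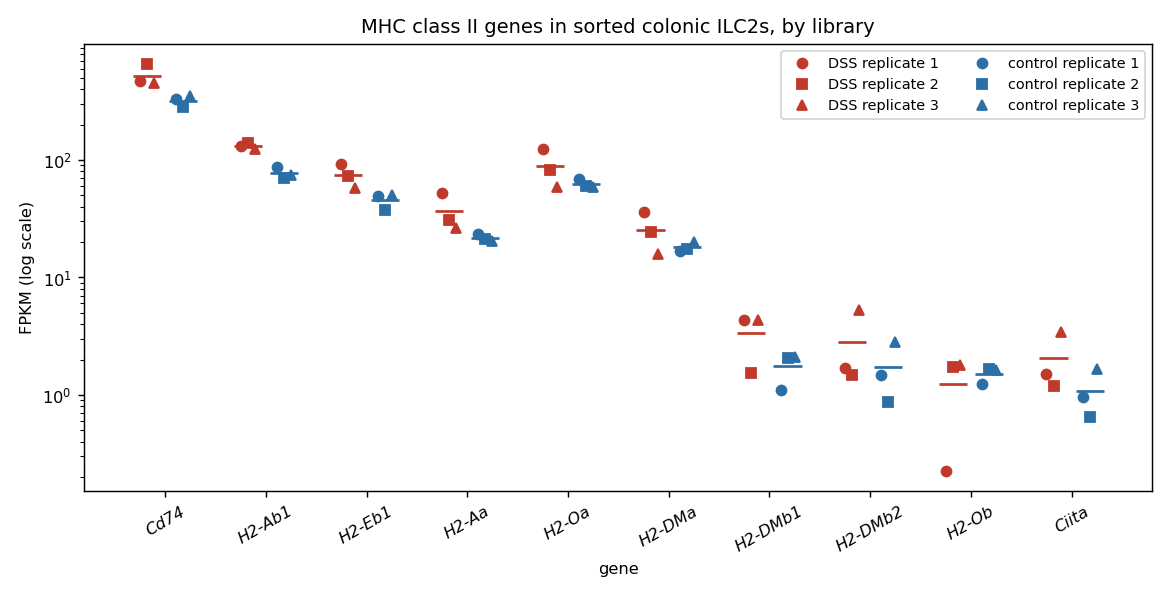
FPKM (log scale) of the 10 class II genes in each library, with DSS left of control for each gene, symbols for replicate numbers and short lines for group means. Cd74, H2-Ab1, H2-Eb1 and H2-Aa show DSS points above all control points, and the 4 weakest genes lie between 0.225 and 5.27 FPKM.

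Cd74 (chromosome 18, 60803848 to 60812652) encodes the invariant chain that chaperones new class II molecules and was the most abundant gene of the set. It had 468, 654 and 450 FPKM in DSS replicates 1, 2 and 3 and 330, 283 and 351 FPKM in control replicates 1, 2 and 3. The groups did not overlap, and DSS replicate 2 was the highest library. The means were 524 ± 113 FPKM in DSS and 322 ± 34.6 FPKM in control (SD, n = 3 each), a log2 change of 0.69 ± 0.23 SE on the log2(FPKM + 1) scale that did not pass (limma adjusted p = 0.342). The 95% interval of that change was 0.18 to 1.19. By mean level, Cd74 ranked 146 of 23268 genes in DSS and 204 in control. It made up 51.3%, 64.7% and 60.2% of the summed FPKM of the set in DSS replicates 1, 2 and 3 and 56.97%, 57.3% and 60.1% in control replicates 1, 2 and 3, so its share overlapped between the groups.

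H2-Ab1, the beta chain of the I-A molecule, had the smallest p of the set. It measured 132, 140 and 124 FPKM in the DSS libraries and 86.6, 69.8 and 74.5 FPKM in the control libraries, replicates 1 to 3 in each. The DSS libraries lay close together and all above the control libraries. The means were 132 ± 7.94 FPKM in DSS and 77.0 ± 8.65 FPKM in control (SD, n = 3 each), a log2 change of 0.77 ± 0.19 SE (95% interval 0.34 to 1.20, limma adjusted p = 0.179). Its alpha chain partner H2-Aa measured 52.2, 31.0 and 26.4 FPKM in DSS and 23.6, 21.3 and 20.4 FPKM in control. DSS replicate 1 stood above the other DSS libraries, and the lowest DSS library lay close above the highest control library. The log2 change of H2-Aa was 0.66 ± 0.26 SE (limma adjusted p = 0.467). The level of H2-Ab1 was 2.52 to 4.69 times that of H2-Aa in DSS libraries and 3.28 to 3.67 times in control libraries. H2-Eb1, the beta chain of I-E, measured 92.1, 72.6 and 57.7 FPKM in DSS and 49.5, 37.7 and 50.7 FPKM in control. Here too all DSS libraries were higher, with a log2 change of 0.66 ± 0.23 SE (limma adjusted p = 0.381).

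These calls depended on DSS replicate 1. Without it, H2-Ab1 and Cd74 passed, with log2 changes of 0.77 and 0.76 (limma adjusted p = 0.0115 and 0.0355), in a fit that called 1.15% of 12530 genes higher in DSS. Over the 6 fits with 1 library left out, the log2 change ran from 0.70 to 0.86 for H2-Ab1, 0.52 to 0.79 for Cd74, 0.50 to 0.83 for H2-Eb1 and 0.38 to 0.86 for H2-Aa. Both replicates 3 together could also be left out, and the changes were then 0.79 for H2-Ab1, 0.85 for Cd74, 0.91 for H2-Eb1 and 0.82 for H2-Aa, with none passing. Weighting the libraries gave 6 passing genes (H2-Aa, H2-Ab1, H2-Eb1, H2-DMa, H2-Oa and Cd74), in a fit that called 12% of all genes higher in DSS and whose weights did not converge. A gene-by-gene weight estimate gave 3 (H2-Ab1, H2-Eb1 and Cd74), against 2.06% of all genes.

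**Figure D2:**
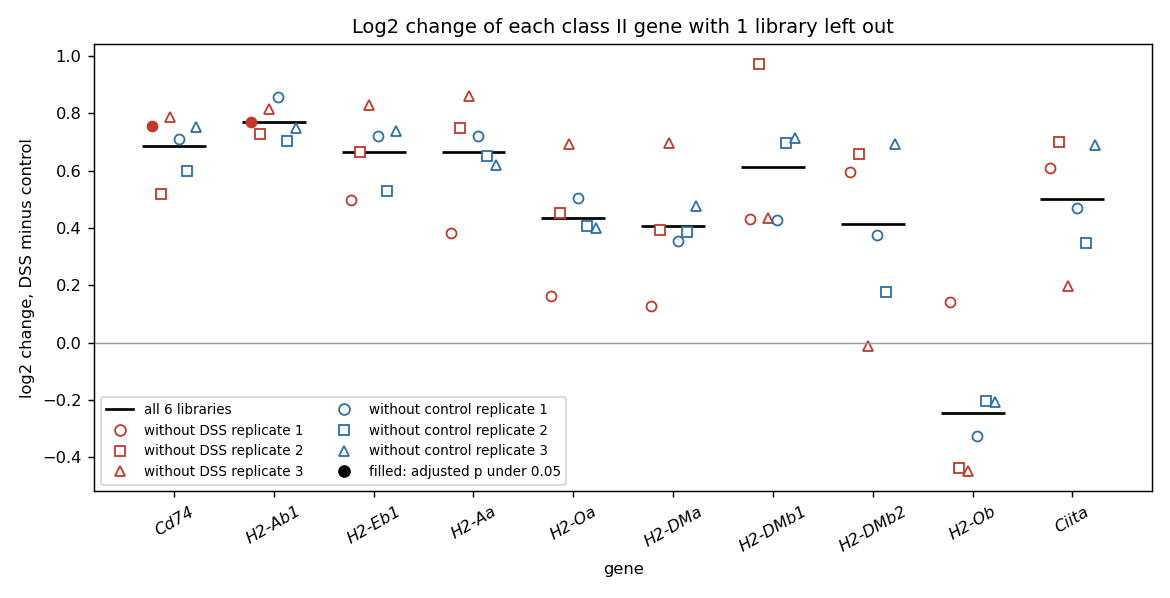
Log2 change, DSS minus control, of each class II gene with all 6 libraries (black line) and with each library left out in turn (symbols), filled where the adjusted p was under 0.05. The filled symbols are Cd74 and H2-Ab1 without DSS replicate 1, and H2-DMb2 and H2-Ob are the genes whose symbols lie on both sides of 0.

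The H2-DM genes encode the peptide exchange factor, with H2-DMa as the alpha chain and H2-DMb1 and H2-DMb2 as alternative beta chains. H2-DMa measured 35.9, 24.6 and 15.8 FPKM in DSS replicates 1, 2 and 3 and 16.6, 17.5 and 19.9 FPKM in control replicates 1, 2 and 3. DSS replicate 3 was the lowest of the 6 libraries and DSS replicate 1 the highest, so the groups overlapped. The log2 change was 0.41 ± 0.28 SE (limma adjusted p = 0.759), with a 95% interval of −0.23 to 1.04. It ran from 0.13 without DSS replicate 1 to 0.70 without DSS replicate 3. In GENCODE M21, 360 of the 3448 exon bases of H2-DMa are also exon of Brd2 on the opposite strand, and these unstranded libraries cannot separate them. Brd2, a bromodomain gene, was at 27.1 FPKM in DSS replicate 1, where H2-DMa was highest, and at 56.7 to 82.8 FPKM in the other 5 libraries.

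The beta chain genes were far weaker. H2-DMb1 measured 4.32, 1.52 and 4.30 FPKM in DSS, from 91, 41 and 61 fragments, and 1.10, 2.05 and 2.11 FPKM in control, from 36, 51 and 38 fragments. H2-DMb2 measured 1.71, 1.47 and 5.27 FPKM in DSS and 1.47, 0.875 and 2.84 FPKM in control, with 23 to 79 fragments a library. For each gene the groups overlapped, and H2-DMb2 was highest in the replicate 3 library of each group. The log2 changes were 0.61 ± 0.39 SE for H2-DMb1 and 0.41 ± 0.46 SE for H2-DMb2 (limma adjusted p = 0.729 and 0.861), and that of H2-DMb2 was −0.012 without DSS replicate 3. The genes are near-identical in places. The longest H2-DMb1 transcript shares 27.2% of its 50-base words with H2-DMb2, and the longest common run is 221 bases, so fragments there cannot be assigned to either gene with certainty. H2-DMa was 3.67 to 16.2 times as high as H2-DMb1 in DSS libraries and 8.53 to 15.2 times as high in control libraries.

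H2-DO, the brake on H2-DM, was uneven between its chains. The alpha chain gene H2-Oa was abundant, with 124, 82.7 and 58.9 FPKM in DSS replicates 1, 2 and 3 and 68.4, 59.7 and 59.2 FPKM in control replicates 1, 2 and 3. DSS replicates 1 and 2 were above all control libraries. DSS replicate 3 was the lowest library, but its exact 95% Poisson interval of 54.9 to 63.1 FPKM held the values of control replicates 2 and 3. The log2 change was 0.44 ± 0.27 SE (limma adjusted p = 0.718). Without DSS replicate 1 the change was 0.16, and without DSS replicate 3 it was 0.69. The beta chain gene H2-Ob measured 0.225, 1.74 and 1.78 FPKM in DSS and 1.23, 1.65 and 1.64 FPKM in control. Its value in DSS replicate 1 rests on 9 fragments, with an exact 95% Poisson interval of 0.103 to 0.427 FPKM for counting error only, below the interval of each other library. The log2 change of H2-Ob was −0.25 ± 0.47 SE (limma adjusted p = 0.920), and 0.14 without DSS replicate 1. H2-Oa was 33.1 to 553 times as high as H2-Ob in DSS libraries and 36.2 to 55.5 times as high in control libraries. Both promoter windows shown above hold TGATTGG. H2-Oa shares 321 of its 1407 exon bases with the antisense gene BC051537, which was at 0 to 2.31 FPKM in DSS and 0.0475 to 1.47 FPKM in control libraries.

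Ciita, which encodes the transactivator of the class II genes, was among the weaker genes of the set. It had 1.499, 1.20 and 3.43 FPKM in DSS replicates 1, 2 and 3, from 135, 138 and 208 fragments, and 0.961, 0.648 and 1.65 FPKM in control replicates 1, 2 and 3, from 135, 69 and 127 fragments. The groups overlapped, and the highest value of each group was in its replicate 3. These levels were 1.93, 1.74 and 1.31 times the median gene of the library in DSS and 2.41, 1.26 and 1.01 times in control. The log2 change was 0.50 ± 0.45 SE (95% interval −0.497 to 1.501, limma adjusted p = 0.819), and 0.20 without DSS replicate 3. Ciita shares 329 of its 9535 exon bases with Dexi on the opposite strand, a gene at 14.8 to 24.7 FPKM in DSS and 13.3 to 17.6 FPKM in control libraries.

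Genes around the class II pathway had log2 changes of both signs, and 0 of 36 tested passed by limma or by voom. Every DSS library was above every control library for 5 of the 36 and below for 7, against 6.35% and 9.6% of all tested genes. Ctss, Ctsz, Irf2 and Psmb9 are among the 5, and Ctsz and Irf2 are named for this count after their values were seen. Among 10 antigen processing genes, 3 had a positive and 7 a negative log2 change, with a median of −0.12. Ctss, which encodes cathepsin S, the protease that trims the invariant chain, measured 94.8, 68.1 and 59.3 FPKM in DSS and 47.6, 45.7 and 44.5 FPKM in control (log2 change 0.65 ± 0.22 SE, limma adjusted p = 0.356). All 3 DSS libraries were above all control libraries, in the order seen for H2-Aa. Ifi30, the thiol reductase of endosomes, averaged 15.4 ± 4.34 FPKM in DSS and 20.8 ± 1.56 FPKM in control. Ctsb, a lysosomal cathepsin gene, averaged 34.1 ± 7.80 FPKM in DSS and 44.5 ± 4.84 FPKM in control, with overlapping groups. Asah1, a lysosomal ceramidase gene, averaged 5.93 ± 1.78 FPKM in DSS and 7.61 ± 0.475 FPKM in control.

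The 14 class II transcription genes, which include the interferon gamma receptor and its signalling chain, had a median log2 change of −0.10, with 5 positive and 9 negative. The receptor chain gene Ifngr2 measured 13.1, 20.8 and 16.8 FPKM in DSS and 32.4, 34.3 and 35.4 FPKM in control, a log2 change of −0.99 ± 0.22 SE (limma adjusted p = 0.136). The kinase gene Jak2 averaged 62.9 ± 2.42 FPKM in DSS and 103 ± 5.38 FPKM in control (−0.70 ± 0.18 SE, limma adjusted p = 0.196). Ifngr2 and Jak2 were thus lower in every DSS library than in every control library. Both passed without DSS replicate 1, in a fit that called 2.32% of 12530 genes lower in DSS. Ifngr1 averaged 187 ± 24.0 FPKM in DSS and 239 ± 7.45 FPKM in control, also without overlap. Of the 14 genes, 5 were lower in every DSS library and 2, Irf2 among them, were higher. The shares of all tested genes were 9.6% and 6.35%.

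Cd83, whose product is known in dendritic cells and thymic epithelium to keep class II on the surface, had the largest difference of the 36. It measured 39.0, 109 and 82.3 FPKM in DSS and 235, 253 and 239 FPKM in control, lower in each DSS library (log2 change −1.76 ± 0.33 SE, limma adjusted p = 0.0987). It passed without DSS replicate 1, in the fit that called 2.32% of 12530 genes lower in DSS. Marchf1 and Marchf8, ubiquitin ligase genes, had at most 2.66 FPKM in any library. The co-stimulatory ligand genes Cd80, Cd86 and Cd40 were at 0.0525 to 2.68 FPKM in DSS and 0 to 1.59 FPKM in control libraries, under the filter. Pdcd1lg2, which encodes PD-L2, averaged 33.3 ± 17.2 FPKM in DSS and 54.3 ± 8.23 FPKM in control, and Tnfsf4, which encodes OX40L, averaged 3.68 ± 1.33 FPKM in DSS and 6.09 ± 2.00 FPKM in control, both with overlapping groups. Icosl averaged 11.3 ± 7.66 FPKM in DSS and 12.1 ± 3.39 FPKM in control, and Cd274, which encodes PD-L1, 60.0 ± 12.9 FPKM in DSS and 56.95 ± 7.54 FPKM in control.

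The class I processing genes that lie inside the class II region had log2 changes of the same sign as the class II chains. Psmb9, an immunoproteasome subunit gene, measured 116, 65.8 and 55.8 FPKM in DSS and 41.6, 47.7 and 35.7 FPKM in control (log2 change 0.85 ± 0.28 SE, limma adjusted p = 0.346). All DSS libraries were higher. Psmb8 averaged 309 ± 97.4 FPKM in DSS and 235 ± 20.6 FPKM in control. The peptide transporter genes Tap1 (99.3 ± 39.8 FPKM in DSS, 69.1 ± 4.51 FPKM in control) and Tap2 (38.8 ± 15.5 FPKM in DSS, 28.4 ± 2.01 FPKM in control) were lowest in DSS replicate 1, where Psmb9, H2-Aa and H2-Oa were highest.

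**Figure D3:**
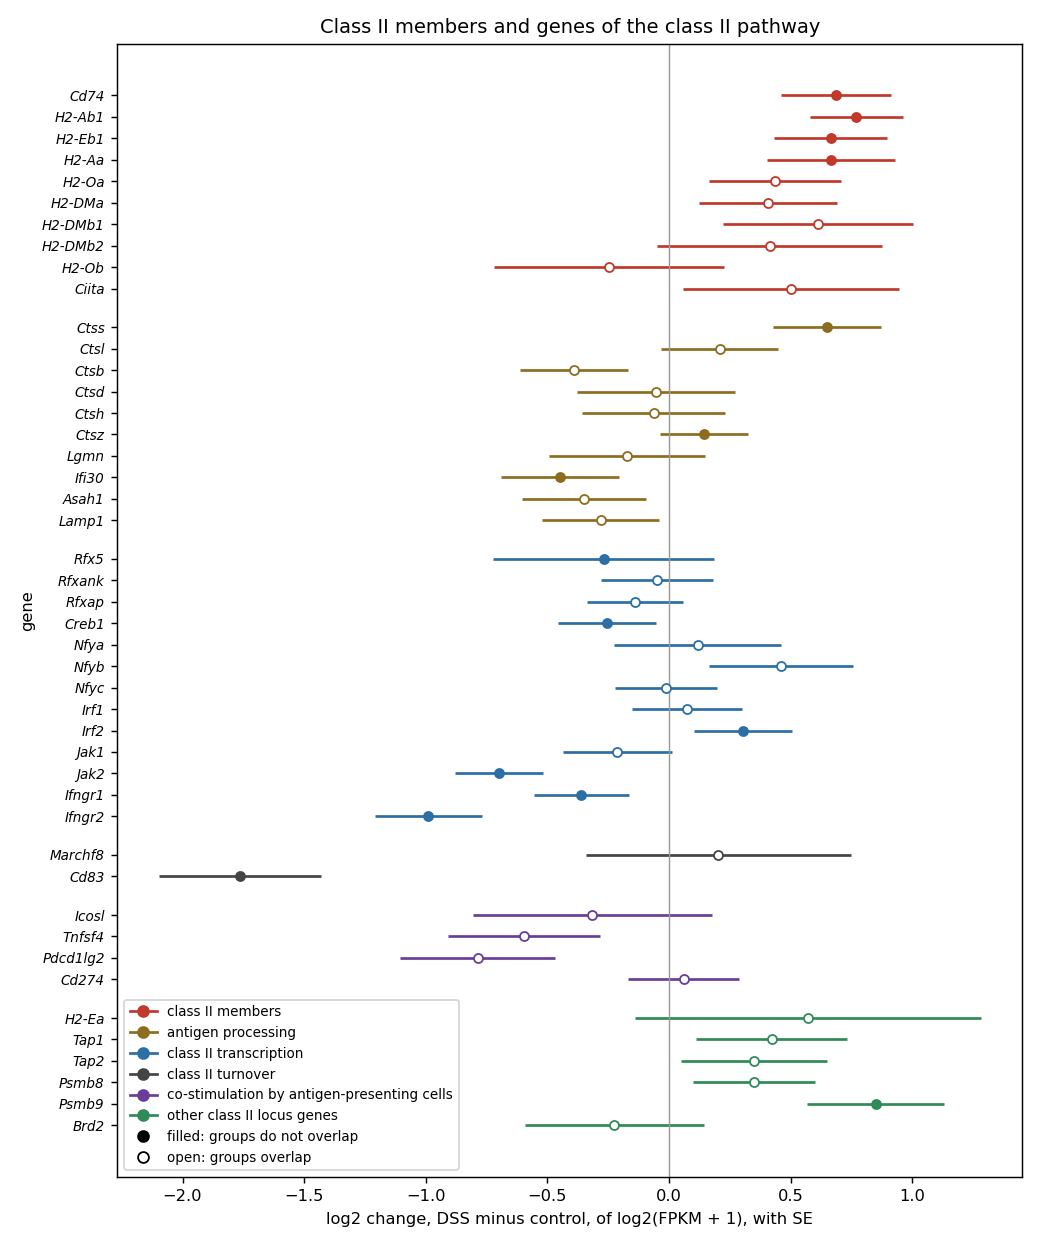
Log2 change with its SE, DSS minus control, of the 10 class II genes and of genes of the pathway lists, coloured by list, with filled points where the groups did not overlap. The 4 filled class II points lie between 0.66 and 0.77, and Cd83 lies farthest to the left at −1.76.

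The library order differed among the genes. H2-Aa, H2-Eb1, H2-DMa and H2-Oa were highest in DSS replicate 1 and next in DSS replicate 2, while Cd74 and H2-Ab1 were highest in DSS replicate 2. Pearson's r with Cd74 over the 6 libraries, on log2 values and given as a description, was 0.92 for H2-Ab1, 0.80 for H2-Eb1, 0.59 for H2-Aa, 0.52 for H2-DMa and for H2-Oa, 0.37 for Ciita and −0.11 for H2-Ob. Among 12186 genes, H2-Ab1 ranked 47 by this measure and H2-Aa 1004. Among the 8 genes outside the set most like Cd74 were Gid8, Derl3, Zfp382, Tradd, Tmem106b, Dedd2 and Dnaja1, with r from 0.96 to 0.98. Derl3 measured 4.59, 8.99 and 2.40 FPKM in DSS and 0.518, 0 and 0.354 FPKM in control. Dnaja1, a co-chaperone gene, measured 412, 468 and 397 FPKM in DSS and 268, 244 and 273 FPKM in control.

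Macrophages, dendritic cells and B cells also carry class II, and their markers ranged from 0 to over 100 FPKM. Over the 12 macrophage and monocyte markers the summed level was 42.0 to 59.0 FPKM in DSS and 34.9 to 40.1 FPKM in control libraries, while the 10 class II genes summed to 747 to 1010 FPKM in DSS and 495 to 584 FPKM in control. Csf1r, the macrophage growth factor receptor gene, measured 0.908, 0.377 and 3.12 FPKM in DSS and 0.0728, 0 and 1.34 FPKM in control. Each of Adgre1, C1qa and Csf1r was at 0 in a control library, and C1qc in DSS replicates 1 and 2. The highest members were Ly6c2, a monocyte gene, at 26.7, 5.07 and 2.84 FPKM in DSS and 0.910, 0.694 and 3.32 FPKM in control, and Ccr2, a chemokine receptor gene, at 14.6 to 17.2 FPKM in DSS and 14.99 to 22.2 FPKM in control. Without Ly6c2 the summed levels overlapped between the groups. The macrophage genes Cd68 and Lyz2 were at 3.58 to 11.3 FPKM in DSS and 1.95 to 6.56 FPKM in control. Of the 6 tested members 0 passed, against 0.222% of all tested genes, and 1 (C1qb, a complement gene) was higher in every DSS library, against 6.35% of all tested genes. The B cell and plasma cell list, with 7 genes in the table, summed to 190, 161 and 43.9 FPKM in DSS and 23.3, 26.4 and 36.0 FPKM in control. Nearly all of that difference was Jchain, the plasma cell joining chain gene, at 164, 146 and 27.7 FPKM in DSS and 12.5, 8.98 and 19.2 FPKM in control (limma adjusted p = 0.136). Of the 3 tested members of this list 0 passed, and 2 were higher in every DSS library, against 6.35% of all tested genes. Jchain was 1 of them, and the other, a B cell gene, was at 1.70 to 2.86 FPKM in DSS and 0.763 to 1.18 FPKM in control. Cd79b, a B cell receptor chain gene, was at 8.72 to 22.6 FPKM in DSS and 9.98 to 15.8 FPKM in control libraries. The B cell gene Pax5 was at 0.00651 to 0.285 FPKM in DSS and at 0 to 0.0877 FPKM in control libraries.

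The 9 dendritic cell markers summed to 51.2 to 84.8 FPKM in DSS and 173 to 193 FPKM in control. Ccr7, a homing receptor gene, made up most of the sum and was the 1 of 5 tested members that passed, lower in DSS (limma adjusted p = 0.0426, log2 change −1.52), against 0.148% of all tested genes. Without Ccr7 the sums overlapped, at 8.17, 10.8 and 23.3 FPKM in DSS replicates 1, 2 and 3 and 14.96, 21.1 and 21.5 FPKM in control replicates 1, 2 and 3. Of these 8 genes, 6 had a higher mean in DSS. Among the 5 tested members of the whole list, however, 3 were lower in every DSS library, Ccr7 among them. The share of all tested genes lower in that way was 9.6%. The median log2 change of the 5 was −1.29. Flt3, a growth factor receptor gene of dendritic cell precursors, was higher in every DSS library, at 1.10, 0.962 and 2.18 FPKM in DSS and 0.0650, 0.0714 and 0.651 FPKM in control, and was under the filter. Itgax was at 0.528 to 1.88 FPKM in DSS and 0 to 1.04 FPKM in control, and Clec9a at 0 to 0.782 FPKM in DSS and 0.137 to 0.734 FPKM in control. The 7 neutrophil genes summed to 66.3 to 102 FPKM in DSS and 2.36 to 5.75 FPKM in control, and 3 of 5 tested members passed, all higher, against 0.0738% of all tested genes. Most of the sum in DSS came from the 3 that passed. Ly6g was at 0 to 0.210 FPKM in DSS and 0 to 0.414 FPKM in control. Cxcr2 was at 0.0438 to 0.845 FPKM in DSS and 0 to 0.665 FPKM in control, so both overlapped. The 10 colon epithelial genes summed to 49.2 to 57.4 FPKM in DSS and 20.4 to 37.9 FPKM in control. The part of these other cells in the class II values was not tested. The 6 T cell genes (21.7 to 62.6 FPKM in DSS, 23.24 to 32.004 FPKM in control) and the 5 ILC3 genes (70.6 to 310 FPKM in DSS, 171 to 284 FPKM in control) overlapped between the groups, and each sum was highest in DSS replicate 1.

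**Figure D4:**
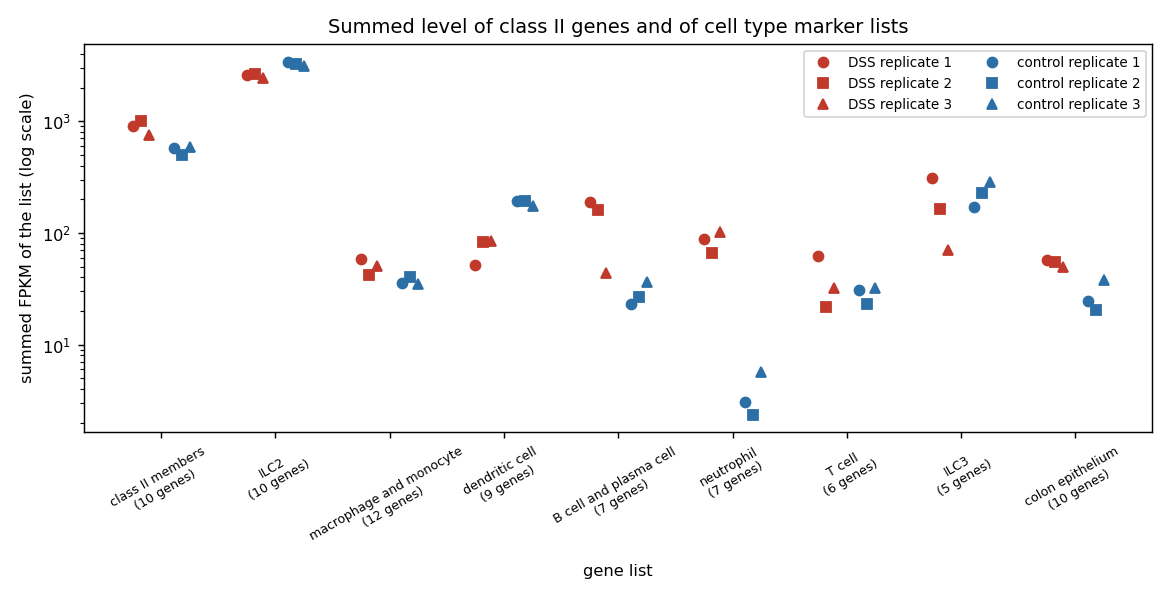
Summed FPKM (log scale) of the 10 class II genes and of 8 cell type marker lists in each library, with DSS left of control and symbols for replicate numbers. The class II, neutrophil, macrophage, B and plasma cell and epithelial sums are higher in every DSS library, and the ILC2 and dendritic cell sums are lower. Without Ly6c2 the macrophage sums overlap, and without Ccr7 the dendritic cell sums do.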

How the data were processed

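Per the submitters' processing notes, cutadapt 1.9, HISAT2 2.2.1 and the build mm10 were used. How fragments were counted, and on which annotation and lengths, is not given in the sources used here. Deposited by the authors were FPKM values of 23268 genes, 1 column per library. RNA was made into full-length cDNA and tagmented libraries that do not mark strand, per the labels' protocols. Whole fragments were recovered from the FPKM steps (tolerance 0.001) for 22701 genes above 0, 100% of them. A gene above 0 in 1 library meets this whatever its value, and a gene above 0 in few libraries can do so too. Fragment numbers that share a common factor come out reduced.

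Values as log2(FPKM + 1) were tested with limma 3.58.1 in R 4.3.3 (two-sided, eBayes with a mean-variance trend) for the 12187 genes averaging at least 1 FPKM, with Benjamini-Hochberg adjustment over all of them and a threshold of 0.05. It was checked on simulated data. The members and lists were chosen with earlier results of these data known. All members are named, with up to 4 genes a list by smallest p, those called, the defining markers and the 8 genes most like Cd74. Annotation was GENCODE M21 (GRCm38, the same as mm10). Same-numbered DSS and control libraries deviated together from their group means (r = 0.189, 0.262 and 0.545), and by the rule that each exceeds 0.1 they count as paired; this comes from the data, not the labels. However, DSS replicate 2 and control replicate 1 gave 0.345, and DSS replicate 1 and control replicate 2 gave 0.101. Both also exceed 0.1, so the rule cannot tell which of replicates 1 and 2 belong together. Deviations from a group mean cancel within the group. A match of replicates 3 alone therefore tends to make the values among replicates 1 and 2 positive, and these values do not show pairing. Alternatives were other pseudocounts, filters, scalings, variance priors and library weights, a replicate block, leaving out libraries, and voom. Python 3.11.15, pandas 2.3.3 and matplotlib 3.10.9 were used. Some genes of these lists are not reported here by name, though counts and sums include them.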

Additional observations from a re-analysis of the deposited data

How the results depend on the processing

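Over 20 alternatives, 3 of them chosen after seeing the data (voom, both replicates 3 left out and the gene-by-gene weights), the median log2 change of the class II genes stayed positive, from 0.38 to 0.71, and 180 of 196 single-gene values kept their sign and their side of the threshold. The count of all genes called was 7 (4 higher, 3 lower) with median-of-ratios scaling and 14 (6 higher, 8 lower) with an equal FPKM total, against 27 (9 higher, 18 lower), and 8 of 19 were higher after quantile normalization. It was 4 with no trend and 8 without both replicates 3. Library weights gave 3286 calls, but their estimation did not converge and gave DSS replicate 2 a weight of 17.8 and DSS replicate 1 a weight of 0.147; the gene-by-gene update gave 635. Of the class II genes 6 and 3 passed with these weights, and of the pathway genes 13 and 7. Leaving out 1 library gave 5 to 435 calls in all, 0 to 2 class II genes and 0 to 7 pathway genes. Signs turned for H2-DMb1 (−0.086 with library weights) and H2-Ob (0.12 and 0.038 with the 2 kinds of weights). With 1 library left out, H2-Ob ran from −0.45 to 0.14 and H2-DMb2 from −0.012 to 0.69. The cause was not tested. With the replicate block 22 genes were called, and the block changed no call of a class II or pathway gene. Depth limits Ciita, H2-Ob, H2-DMb1 and H2-DMb2, which rest on 9 to 208 fragments a library.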

Other observations

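H2-Ea, H2-Eb2 and Btnl2, other genes of the class II region, had low values that were highest in the replicate 3 libraries. H2-Ea, the I-E alpha chain gene, a polymorphic pseudogene in GENCODE M21, had 1.03, 0.704 and 5.45 FPKM in DSS replicates 1, 2 and 3 and 0.0413, 0.327 and 3.91 FPKM in control replicates 1, 2 and 3. H2-Eb2, a further beta chain gene, had 0.256, 0.107 and 1.897 FPKM in DSS and 0, 0.283 and 0.896 FPKM in control. Btnl2, a butyrophilin-like gene beside the class II chains, had 0.0260, 0.101 and 2.01 FPKM in DSS and 0, 0.198 and 1.09 FPKM in control. In each of the 3 genes the highest library of each group was its replicate 3. The median gene of the table was also highest in these libraries, at 2.61 FPKM in DSS replicate 3 and 1.64 FPKM in control replicate 3. H2-Eb2 and Btnl2 were below the median gene of the library in all 6 libraries. Mir5107, a microRNA hairpin locus inside Cd74 that shares 12 exon bases with it, had 55.3, 137 and 132 FPKM in DSS and 36.9, 50.6 and 56.7 FPKM in control, on the same strand as Cd74. Fragments of Cd74 RNA over the 88 bases that the 2 genes share cannot be told apart from the hairpin. These values are thus not a measure of the microRNA.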
